A study of Mus musculus with 10 samples.

Results

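H3K27me3 at gene promoters was described in control mouse ES cells, from the 2 control H3K27me3 libraries and the 1 control input library among the 10 libraries of the series. The cells were E14 embryonic stem cells, labelled wild-type with the strain 12910la, and the input was chromatin DNA sequenced without an antibody. The study set these cells against ES cells titled Ezh2KO, in which exon 14 of Ezh2 was disrupted so that the isoform skipping it (ex14D) was left functional, and that genotype change is not described here. The labels do not say whether the 2 H3K27me3 libraries came from separate cultures, so the replicate spread behind the p-values may be technical. That spread was estimated from the control pair together with the pair of H3K27me3 libraries of the Ezh2KO cells. Each library gave a count of reads for each of 24500 promoters, a window of 1000 bp centred on the 5′-most transcription start site of a gene. The enrichment of a promoter was log2((CPM + 1)/(input CPM + 1)), computed for each replicate against the same input, with CPM scaled to the reads on promoters alone. A promoter was called marked when its enrichment reached 2-fold in each of the 2 libraries.

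H3K27me3 is the trimethylated form of lysine 27 of histone H3. It is made by Polycomb Repressive Complex 2 (PRC2), in which EZH2 or EZH1 is the methyltransferase and EED and SUZ12 are core partners, and the EED subunit binds the finished mark. In ES cells the mark is known to sit over promoters of silent developmental regulators, many of them CpG islands that also carry the active mark H3K4me3, while promoters of genes in steady use lack it. Promoters that are silent for other reasons, such as those of most olfactory receptor genes, mostly lack CpG islands and are not known as PRC2 targets.

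The DNA of a few promoters is shown first, to show how CpG-rich and CpG-poor promoters with and without the mark look. The 7 sequences below are RefSeq promoters of GRCm38.p6, from 250 bases before to 50 bases after the start site, written 5′ to 3′ along the gene with each CpG in capitals. Gsx1, a homeobox gene of the embryonic brain, Slc18a3, the vesicular acetylcholine transporter of cholinergic neurons, and Evx2, a homeobox gene beside the HoxD cluster, are marked promoters with many CpGs. Hoxa7, a Hox transcription factor, and Lor, which encodes the loricrin of the skin barrier, are marked promoters with fewer CpGs.
Gsx1, chr5:147188446-147188745, plus strand: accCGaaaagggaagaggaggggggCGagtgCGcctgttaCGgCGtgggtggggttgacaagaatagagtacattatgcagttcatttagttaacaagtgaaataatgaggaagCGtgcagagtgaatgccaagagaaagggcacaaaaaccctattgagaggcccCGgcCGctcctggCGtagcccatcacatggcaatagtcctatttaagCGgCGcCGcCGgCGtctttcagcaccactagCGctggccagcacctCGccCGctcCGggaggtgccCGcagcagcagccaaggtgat
Slc18a3, chr14:32464801-32465100, minus strand: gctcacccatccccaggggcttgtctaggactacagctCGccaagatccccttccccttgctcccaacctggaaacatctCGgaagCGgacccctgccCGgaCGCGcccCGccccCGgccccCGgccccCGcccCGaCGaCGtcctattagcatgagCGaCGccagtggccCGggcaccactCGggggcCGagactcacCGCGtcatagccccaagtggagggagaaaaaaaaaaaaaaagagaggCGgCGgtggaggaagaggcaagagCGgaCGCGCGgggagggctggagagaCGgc
Evx2, chr2:74659508-74659807, minus strand: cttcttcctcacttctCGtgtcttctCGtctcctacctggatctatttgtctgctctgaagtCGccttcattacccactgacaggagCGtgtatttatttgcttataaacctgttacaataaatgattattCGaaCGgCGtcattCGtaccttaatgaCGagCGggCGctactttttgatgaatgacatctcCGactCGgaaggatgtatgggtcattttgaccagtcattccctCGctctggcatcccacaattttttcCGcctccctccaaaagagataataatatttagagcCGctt
Hoxa7, chr6:52218524-52218823, minus strand: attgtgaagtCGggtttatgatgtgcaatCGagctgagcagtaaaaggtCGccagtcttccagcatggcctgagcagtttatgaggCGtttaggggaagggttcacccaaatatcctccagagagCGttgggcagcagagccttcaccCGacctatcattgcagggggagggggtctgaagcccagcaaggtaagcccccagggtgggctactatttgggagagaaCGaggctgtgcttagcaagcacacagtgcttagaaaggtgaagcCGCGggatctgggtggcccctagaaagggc
Lor, chr3:92083093-92083392, minus strand: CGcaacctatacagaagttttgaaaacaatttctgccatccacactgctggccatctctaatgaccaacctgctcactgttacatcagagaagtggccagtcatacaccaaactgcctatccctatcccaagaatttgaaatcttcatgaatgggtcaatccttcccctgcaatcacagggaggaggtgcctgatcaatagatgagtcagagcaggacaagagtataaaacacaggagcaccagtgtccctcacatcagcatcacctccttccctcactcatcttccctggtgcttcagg
Rplp2, a ribosomal protein gene, has a CpG-rich promoter that is not marked, and Olfr1239, an olfactory receptor gene, has a promoter with almost no CpG that is not marked either.
Rplp2, chr7:141447401-141447700, plus strand: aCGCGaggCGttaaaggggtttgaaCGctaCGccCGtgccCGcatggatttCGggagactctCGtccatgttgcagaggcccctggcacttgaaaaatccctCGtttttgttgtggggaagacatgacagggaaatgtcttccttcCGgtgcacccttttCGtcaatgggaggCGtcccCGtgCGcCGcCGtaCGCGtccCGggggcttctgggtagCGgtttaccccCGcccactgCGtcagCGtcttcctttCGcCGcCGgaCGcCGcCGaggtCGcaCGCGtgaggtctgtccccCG
Olfr1239, chr2:89418362-89418661, minus strand: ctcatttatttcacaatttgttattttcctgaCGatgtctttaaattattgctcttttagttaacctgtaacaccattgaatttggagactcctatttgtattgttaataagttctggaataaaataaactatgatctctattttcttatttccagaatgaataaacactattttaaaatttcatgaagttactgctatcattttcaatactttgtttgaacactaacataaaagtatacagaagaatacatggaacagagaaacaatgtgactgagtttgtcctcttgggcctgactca
In these 300 bases Gsx1 had 19 CpGs, Slc18a3 27, Evx2 16, Hoxa7 9, Lor 1, Rplp2 34 and Olfr1239 1. Reads over the 1000 bp windows followed another order. Gsx1 had 482 reads in replicate 1, 578 in replicate 2 and 8 in the input. Lor had 155, 278 and 11. Rplp2 had 0, 0 and 17, and Olfr1239 had 0, 9 and 26. The promoter with the most CpGs among the 7 had no H3K27me3 read. The 7 were chosen with their values known, to show such contrasts, so their order is no result about promoters in general. Of the 24500 promoters, 17139 had a RefSeq sequence at the same start site, with a median of 22 CpGs in the 1864 marked ones and 12 in the 15275 others.

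Depth was modest. Promoters held 594289 reads in replicate 1, 937207 in replicate 2 and 409371 in the input, which were 5.65%, 5.98% and 1.90% of all counted reads. The median promoter had 7, 11 and 18 reads, and 2313, 1961 and 1280 promoters had no read. All values below thus rest on a single input library with a median of 18 reads a promoter, and many promoters had far fewer.

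Of the 24500 promoters, 2776 (11.3%) were marked. These promoters took 64.0% of all promoter reads in replicate 1 and 61.2% in replicate 2, against 11.5% in the input. Input reads were at most 3 at 253 of the 2776, with 0 at 125 of them, and above 3 at 2523. At least 4-fold enrichment in both libraries was found at 1394 promoters, 8-fold at 407 and 16-fold at 40. Just inside the threshold lay Enho (1.00 and 1.41) and just outside it Slfn5 (1.00 and 1.47, the first value being under 1 before rounding), so the threshold does not separate 2 kinds of promoter. A further 219 promoters passed in replicate 1 alone and 681 in replicate 2 alone. The 2 sets of enrichments had a Pearson's r of 0.896 and a Spearman's rho of 0.860 across the 24500 promoters, which share the input and are not independent replicates. The replicates were not 1 library deposited again, since their counts gave a chi-square of 2.31 per degree of freedom over 17714 promoters, so the libraries were kept as separate samples.

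**Figure D1:**
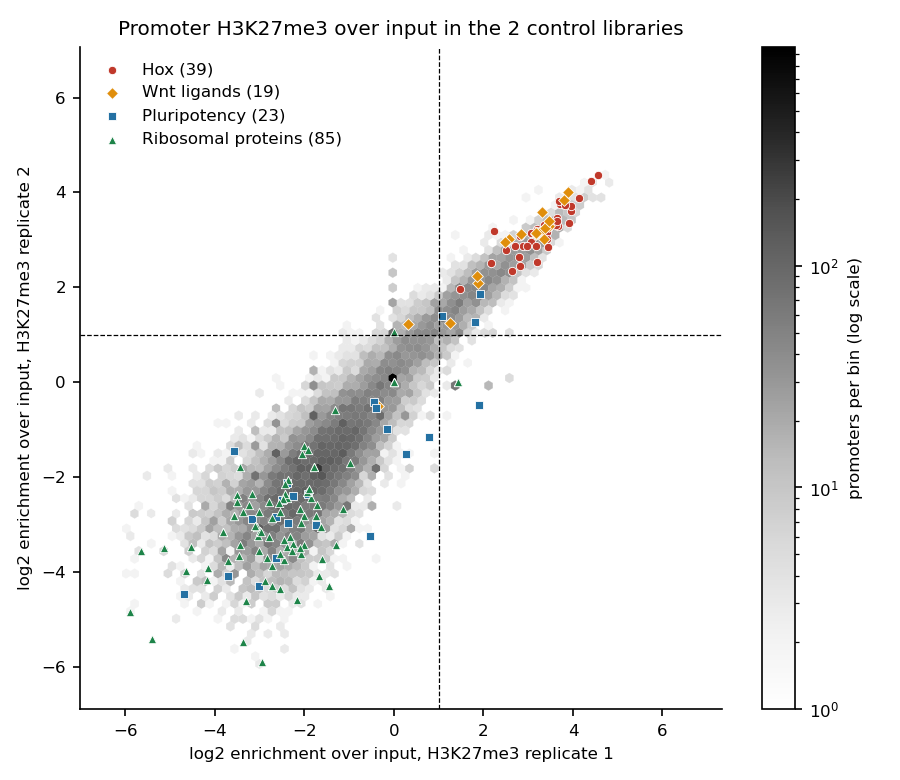
Each bin counts promoters by their log2 enrichment over input in H3K27me3 replicate 1 (x axis) and replicate 2 (y axis), dashed lines mark 2-fold (a log2 value of 1), and 4 gene lists are drawn as points with their numbers. All 39 Hox promoters lie in the upper right quadrant, and the ribosomal protein promoters lie mostly below 0 in both libraries.

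In edgeR's quasi-likelihood test against input with Benjamini-Hochberg adjustment, 2981 of 21261 promoters tested (14%) were higher and 12968 (61.0%) were lower. Of the 2776 marked promoters 2627 were called higher, 34 were not called and 115 had too few reads to be tested. The share called lower depends on the scale, because CPM over promoter reads compares shares within each library. The median enrichment was −1.45 in replicate 1 and −1.51 in replicate 2, and scaling to all counted reads adds 1.57 and 1.65 to the log2 ratio. With that library size edgeR called 5203 promoters higher and 2584 lower, and with TMM 5352 and 2702. "Lower" is therefore used below for a smaller share of promoter reads than in the input.

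The 10 promoters with the highest enrichment by the fixed rule (the lower value of both libraries, average log2 CPM of at least 3) were Mir212, Hoxa11os, Hand2, Irx2, Mir129b, Irf2, Gsx1, Gata6, Adarb1 and Nefh. Their input counts were 0 for Mir212, Hand2, Irx2, Mir129b, Irf2, Gata6 and Adarb1, 1 for Hoxa11os, 3 for Nefh and 8 for Gsx1. As placed here on RefSeq start sites, the windows of 8 of them, all but Hand2 and Gsx1, overlapped another window. Reads in such an overlap are ambiguous for htseq-count in its default setting, and 3530 placed windows overlapped another, 345 of them marked. The authors' counted windows, from annotations of the UCSC genome browser, may differ from the placed ones. Hand2 had 0 input reads although its placed window overlapped no other. Hand2, a transcription factor of the embryonic heart and limb, had 49 and 44 reads against 0, at least 11.3-fold and 6.41-fold over an input floor of 3 reads. Mir212, a microRNA gene, had 60 and 80 reads against 0, at least 13.8-fold and 11.6-fold. Nefh, a neurofilament subunit, had 150 and 207 reads against 3, ratios of 34.4 (95% counting interval 11.6 to 169) and 30.1 (10.2 to 147). These intervals and floors cover counting error only.

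Among windows that overlapped no other, a list chosen after the values were seen, those after Hand2 included developmental and neuronal genes with input counts above the floor of 3 reads, several of them under the median of 18. Gsx1 (window chr5:147188196-147189195) had enrichments of 5.30 and 4.91, and edgeR gave a log2 fold change of 5.18 ± 0.39 (SE, adjusted p = 8.81e-28). Slc18a3 had 201 and 300 reads against 5 in the input, enrichments of 4.68 and 4.60. Lbx1, a homeobox gene of spinal cord and muscle precursors, had 572 and 615 against 12, enrichments of 4.99 and 4.44. All 3 were over 16-fold above input in both libraries. Others near the head of the list were Evx2 (4.64 and 4.34), the X-linked homeobox gene Esx1 (4.37 and 4.24), Hoxb9 (4.41 and 4.24), the potassium channel gene Kcnk9 (4.43 and 4.17) and Tmem200b (4.27 and 4.13). All 20 promoters at the head of this list had a peak of H3K27me3 and a domain of EZH2 in both libraries of each.

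Transcription factor families of the embryo carried the mark most widely. All 39 Hox promoters were marked, as were all 12 LIM homeobox, all 9 Dlx and Msx and all 6 Iroquois promoters, against 11.3% of all promoters. The lists, here and below, were chosen with earlier results of these data known, so their shares carry no test. Each of these promoters was also called higher than input by edgeR. Hoxa11 was the highest Hox promoter (4.57 and 4.36) and Hoxd4 the lowest (1.48 and 1.97). Lmx1b (4.61 and 3.89) and Isl1 (1.46 and 2.02) were the ends of the LIM list, Dlx6 (3.80 and 3.59) and Msx2 (1.84 and 2.02) those of Dlx and Msx, and Irx2 (5.25 and 5.48, input 0) and Irx3 (2.26 and 2.00) those of Iroquois. Within each list the highest and lowest members are those by the lower of both enrichments, here and below. In these 4 families even the lowest member was past 2-fold in both libraries.

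Other families were split between marked and unmarked members. Of the paired-box genes 8 of 9 were marked, with Pax2 of the kidney and brain highest (3.98 and 3.35) and Pax4 of the endocrine pancreas lowest (0.10 and −0.19). Of the GATA factors 5 of 6 were marked, Gata6 of primitive endoderm and heart being highest (4.97 and 4.85 with 18 and 26 reads against 0), and only Gata1 of the red cell lineage was not (−0.66 and −0.67). Of the Nkx genes 11 of 14 were marked, from Nkx2-2 (3.85 and 3.78) to Nkx2-6 (−1.78 and 0.29, with 0, 3 and 1 reads). Of the proneural and oligodendrocyte bHLH genes 15 of 20 were marked, from Ascl2 (3.94 and 3.87) to Neurod4 (−1.63 and −1.65). Of the T-box genes 12 of 16 were marked, from Tbx2 (4.84 and 4.40, input 1) to Tbx6 (−0.79 and −2.52). Lineage factors of the germ layers thus lay beside members of the same family that were not enriched.

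The mixed families hold genes known to be used in ES cells. Of the Sox genes 13 of 20 were marked, from Sox14 (3.45 and 3.49) to Sox15 (−2.26 and −6.12, with 8 and 0 reads against 28), and Sox2, the ES cell factor, had −0.52 and −3.24. Of the forkhead genes 26 of 46 were marked, from Foxd2 (4.84 and 4.14, input 3) to Foxh1, the Nodal pathway factor (−4.53 and −4.31). Of the POU genes 8 of 15 were marked, from Pou3f3 (4.76 and 4.22) to Pou2f1 (−4.47 and −3.50), and Pou5f1, which encodes OCT4, had −1.74 and −3.01. Of the sine oculis homeobox and Eya genes 6 of 10 were marked, from Six2 (4.52 and 3.95) to Six4 (−1.98 and −3.77), and of the Dmrt genes 7 of 12, from Dmrta2 (3.29 and 2.75) to Dmrtc1b, which had 1, 0 and 2 reads.

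**Figure D2:**
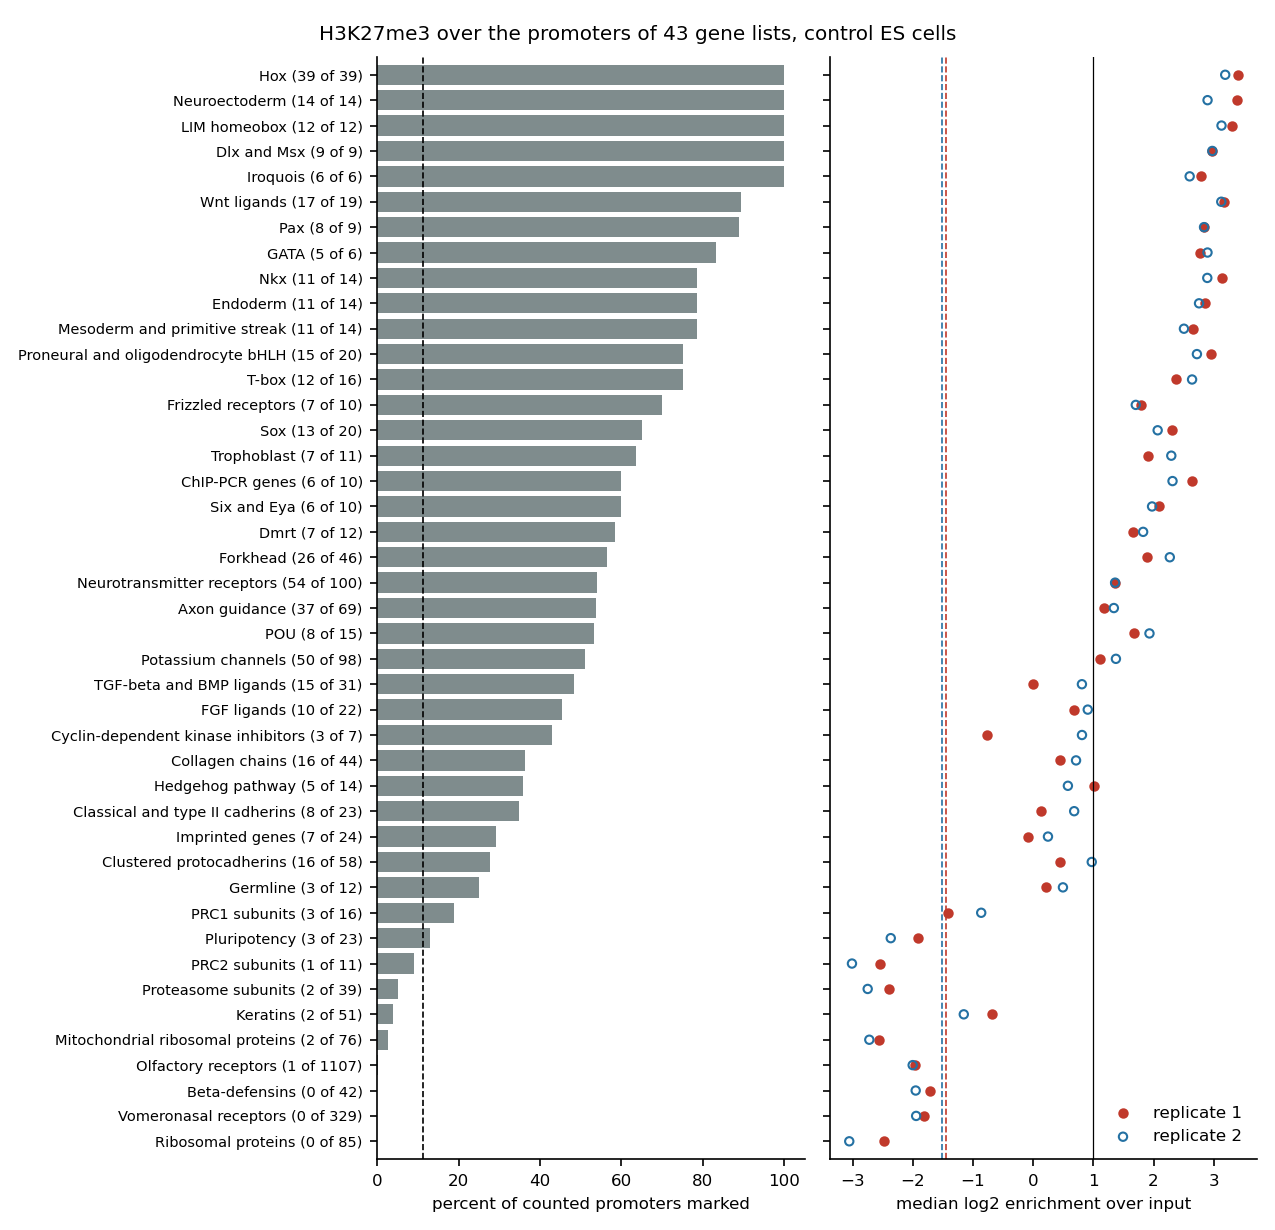
For each of 43 gene lists the bars give the percent of counted promoters that were marked, with the number in brackets, and the points give the median log2 enrichment over input in H3K27me3 replicate 1 (filled) and replicate 2 (open). Dashed lines are the values over all promoters (11.3%, and medians of −1.45 and −1.51) and the solid line in the right panel marks 2-fold. Lists of embryonic transcription factors and Wnt ligands fill the top, and ribosomal, proteasome, olfactory and vomeronasal genes fill the bottom.

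Among signalling molecules the mark was common at genes of secreted ligands. The shares to set beside the counts below are 11.3% marked of all promoters, and 14% called higher and 61.0% lower of all tested. Of the Wnt ligands 17 of 19 were marked and 18 were called higher by edgeR, from Wnt10a (3.89 and 4.01) to Wnt8b (−0.35 and −0.51), and of their Frizzled receptors 7 of 10 were marked, from Fzd10 (3.03 and 2.82, input 2) to Fzd7 (−0.64 and −2.81). In the Hedgehog pathway the 3 ligands Shh (3.53 and 3.56), Ihh (3.53 and 3.41) and Dhh (2.74 and 2.66) were all marked, with 23 and 37 reads against 1 for Shh. The other marked members were the receptor Ptch1 (2.73 and 1.79) and the inhibitor Hhip (1.56 and 1.28), so that 5 of the 14 genes of the pathway were marked and edgeR called 6 higher and 2 lower. The signal transducer Smo (0.26 and 0.07), the inhibitor Sufu (−1.76 and −1.56) and the co-receptor Cdon (−1.73 and −2.52) were not marked. The transcription factor Gli1 differed between the replicates (1.95 and −0.72). Of the TGF-beta and BMP ligands 15 of 31 were marked, from Bmp6 (4.36 and 3.87) to Nodal, a ligand of the early embryo (−3.65 and −1.78), and edgeR called 15 higher and 9 lower. Of the FGF ligands 10 of 22 were marked, from Fgf8 (3.74 and 3.54) to Fgf1 (−1.10 and −2.67).

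Genes of neurons and of cell contact were marked at several times the background share of 11.3%. Of the neurotransmitter receptor genes 54 of 100 were marked, from Gabbr2, a GABA-B receptor subunit (4.29 and 3.92), to the serotonin receptor Htr2b (−4.93 and −2.94). Of the potassium channel genes 50 of 98 were marked, from Kcnk9 to Kcnu1 (−2.88 and −3.69). Of the axon guidance genes 37 of 69 were marked, from Ntng1 (3.40 and 3.22) to Plxnb1 (−5.14 and −1.73, with 0, 9 and 14 reads). The share was lower among cadherins, 8 of 23, from Cdh8 (4.12 and 3.73, input 1) to Cdh1, the E-cadherin of ES cells (−3.17 and −1.86). Among clustered protocadherins it was 16 of 58, from Pcdhac2 (3.84 and 3.48) to Pcdha7 with 0, 2 and 2 reads. edgeR called 27 of these 58 higher, beside 14% of all promoters tested. Replicate 1 was below replicate 2 at 53 of the 58, with a median difference of −0.49 on the log2 scale. Among collagen chains it was 16 of 44, from Col14a1 (3.23 and 3.21) to Col28a1 (−3.36 and −3.42).

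Families that appear in no list above were ranked by symbol stem. The 10 stems of at least 8 promoters with the largest marked share were Hs (9 of 12, all 9 heparan sulfate sulfotransferases), Adcy (7 of 10, adenylyl cyclases), Pcdh (8 of 12, protocadherins outside the clusters), Adamts (12 of 19, matrix proteases), Shisa (5 of 8), Cacna (8 of 14, calcium channel subunits), Cpne (5 of 9, copines), Syt (9 of 17, synaptotagmins), Galnt (8 of 16) and Pcsk (5 of 10, proprotein convertases). Their highest members were Hs6st2 (3.96 in the lower library), Adcy5 (3.95) and Cpne5 (4.02). These families were picked by their marked share, so the shares carry no test.

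Housekeeping and sensory genes were at the other end. No ribosomal protein promoter of 85 was marked, nor any of 329 vomeronasal receptor and 42 beta-defensin promoters, and 1 of 1107 olfactory receptor promoters was. edgeR called 66 of 68 tested ribosomal, 230 of 250 vomeronasal and 966 of 1084 olfactory promoters lower, beside 61.0% of all promoters tested. Under TMM 31, 20 and 81 were called lower. The vomeronasal and olfactory shares were then under that of all promoters, and the ribosomal share was above it. A further 2 of 76 mitochondrial ribosomal, 2 of 39 proteasome and 2 of 51 keratin promoters were marked. The olfactory exception, Olfr94 (1.42 and 1.66), had 94 and 176 reads against 24. By the lower of both libraries the lowest members were Rps14 (−5.90 and −4.85, while Rplp2 was lower by the mean of both, with −5.41 in each), Mrpl33 (−2.37 and −5.32), Psmb6 (−4.07 and −3.84), Olfr1239 (−6.01 and −2.61), Vmn1r2 (−3.61 and −5.03), Krt85 (−3.97 and −2.32) and Defb35 (−3.38 and −2.14). At the top of the ribosomal list were 7 promoters tied at 0 by the lower of both, each with at most 1 read in the 3 libraries together. The highest of the other lists were Mrps6 (1.42 and 2.89, with 1 and 6 reads against 0), Psmb9 (1.83 and 1.79), Vmn1r100 with no read, Krt87 (1.88 and 1.53) and Defb25 (−0.85 and −0.52).

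The median log2 fold change over input in edgeR was −3.15 for ribosomal protein promoters and −2.06 for olfactory receptor promoters, a difference that was not tested. The first are mostly CpG-rich, 79 of 85 having an observed/expected CpG ratio of at least 0.6, and of the second 1 of 1099 placed promoters is. On the scale of all counted reads edgeR called 30 of 59 tested ribosomal promoters lower and none higher (median log2 fold change −1.56). It called 79 of 1062 olfactory promoters lower and 5 higher (median −0.45), a share of lower calls under that of all promoters on that scale. The direction of both medians held under TMM (−1.63 and −0.52). The 5 lowest promoters of all by the higher of both enrichments were Wdr41, Zscan10, Rplp2, Setd5 and Elk1. All 5 had 0 reads in both H3K27me3 libraries, as many other promoters did, and their order comes from 25, 21, 17, 14 and 12 reads in the input.

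The defining genes of ES cells were looked at next, as a check of the cells. Of 9 ES cell markers edgeR called 7 lower than input, 1 higher and 1 neither, beside 61.0% lower and 14% higher of all promoters tested, and 3 were still called lower under TMM or with all counted reads. Nanog had 10, 10 and 37 reads in replicate 1, replicate 2 and input (−2.36 and −2.97), and Pou5f1 had 10, 6 and 24. Zfp42, which encodes REX1, had 1, 1 and 14 (−3.71 and −4.09). Dppa4 (−2.64 and −3.72), Lin28a (−2.26 and −2.41), Sall4 (−1.92 and −2.37) and Sox2 were the other 4 called lower. All 7 were below 0 in both libraries, as was the median promoter. The exception was Klf4, a factor of naive pluripotency, with 93, 101 and 18 reads (1.81 and 1.27), and Esrrb was not called (−0.44 and −0.41).

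Over the whole pluripotency list 3 of 23 promoters were marked, near the 11.3% of all promoters, and edgeR called 14 lower and 3 higher, or 6 and 5 under TMM. These shares are close to the 61.0% and 14% of all promoters tested and are no result about the list. The marked ones were Klf4, Tbx3 (1.93 and 1.86) and Prdm14 (1.08 and 1.38), while Tdgf1 was the lowest (−4.69 and −4.47). Several members differed between the replicates. Klf2 had 72 reads in replicate 1 and 21 in replicate 2, against 13 in the input (1.90 and −0.48), Fgf4 had 60, 24 and 24 (0.77 and −1.16), and Tdh had 30, 13 and 17 (0.28 and −1.52). Replicate 1 was above replicate 2 at 17 of the 23 promoters, with a median difference of 0.38 on the log2 scale, and at 11704 of all 24500 promoters, with a median of 0.00.

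Genes listed as defining other lineages were largely marked, beside 11.3% of all promoters. Some genes stand in more than 1 list, such as Cdx2 (endoderm and trophoblast) and Eomes (mesoderm and trophoblast). The lists are thus not separate from each other. All 14 neuroectoderm promoters were marked, from Six3 (360, 517 and 16 reads, 3.92 and 3.79) to Nes (124, 307 and 34 reads, 1.32 and 1.97). Of the mesoderm and primitive streak genes 11 of 14 were marked, with Foxf1 highest (4.00 and 3.79). T, the Brachyury gene, had 317, 414 and 29 reads (2.90 and 2.62), and Eomes 278, 386 and 23 (3.04 and 2.85). Mesoderm genes without the mark were Tbx6, Msgn1 (−0.33 and −0.09) and Meox1 (−0.28 and −0.02). Of the endoderm genes 11 of 14 were marked, Cdx2 (4.05 and 3.69) and Foxa2 (3.53 and 3.42) among them. Those not marked were Hnf4a (−0.15 and −0.41) and the secreted protein genes Afp (−1.98 and −1.58) and Ttr (−0.97 and −1.60), that is, 1 regulator and 2 genes of differentiated cells. Of the trophoblast genes 7 of 11 were marked, from Ascl2 to Plet1 (−2.54 and −2.06). Of the germline genes 3 of 12 were marked, all under 2 on the log2 scale, namely Taf7l (1.69 and 1.65), Ddx4 (1.58 and 1.64) and Sycp1 (1.10 and 1.23), and Sycp3 was lowest (−2.28 and −1.28).

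**Figure D3:**
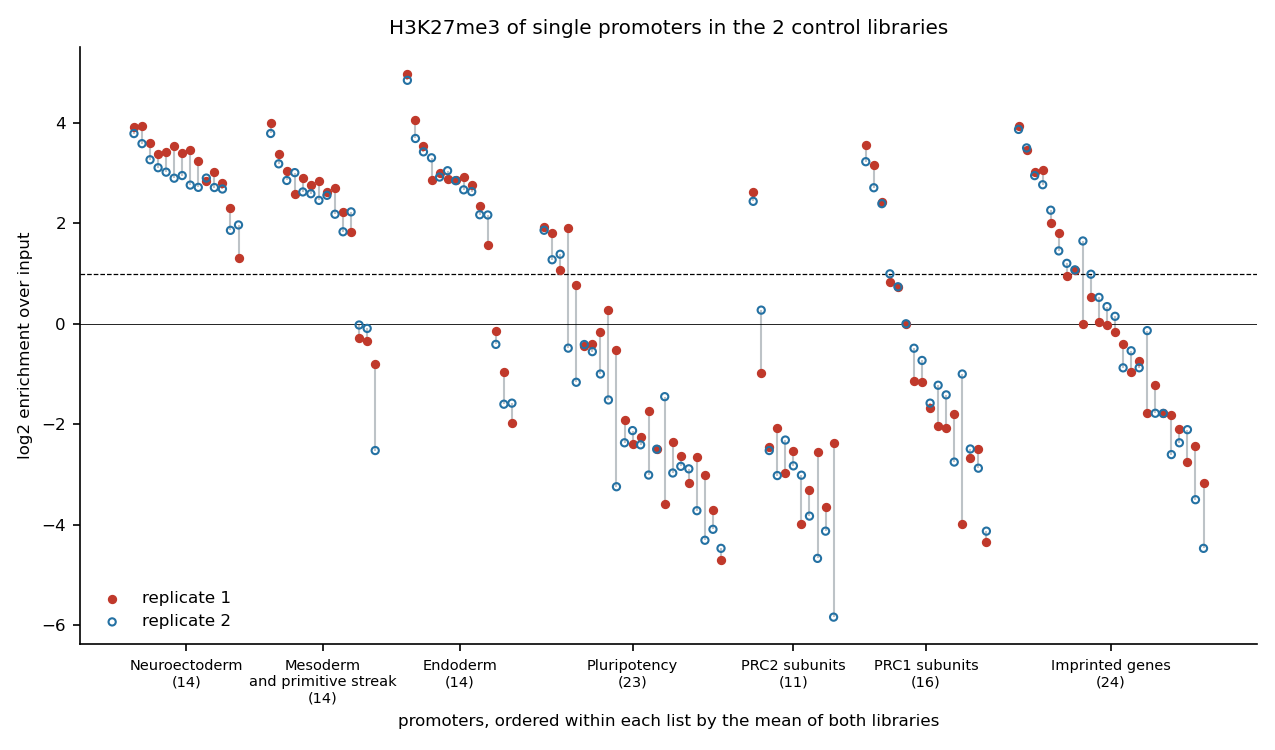
Each promoter of 7 gene lists is drawn at its log2 enrichment over input in H3K27me3 replicate 1 (filled) and replicate 2 (open), joined by a line and ordered within the list by the mean of both, and the dashed line marks 2-fold. The 14 neuroectoderm promoters all lie above the dashed line in both libraries, while 3 of 23 pluripotency and 1 of 11 PRC2 promoters do.

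The genes of the Polycomb complexes themselves were looked at as well. Of the 11 PRC2 subunit genes only Phf19, an accessory subunit, was marked, with 183, 252 and 20 reads (2.63 and 2.44). Ezh2 had 4, 5 and 18 reads (−2.54 and −2.83), Suz12 had 1, 4 and 17 (−3.99 and −3.01), and Eed had 6, 0 and 23 (−2.37 and −5.84). The last was the lowest of the list, and edgeR called 9 of its 11 promoters lower, where 61.0% of all promoters tested were. With all counted reads 4 of 10 tested were called lower and 2 higher, while of all promoters more were called higher than lower on that scale. The difference from all promoters was not tested. Of the PRC1 genes 3 of 16 were marked, near the 11.3% of all promoters for a list of this size, among them the chromobox gene Cbx8 (3.56 and 3.23) and the ring-finger gene Bmi1 (2.43 and 2.39), and Phc1 was lowest (−4.35 and −4.13). Among inhibitors of cyclin-dependent kinases Cdkn1c (3.05 and 2.77), Cdkn2c (2.22 and 1.84) and Cdkn2a (1.70 and 1.75, 39, 64 and 8 reads in a window that overlaps another) were marked. Cdkn2b (−0.76 and 0.81) and Cdkn1a (−1.48 and −0.82) were not, and Cdkn2d was lowest (−3.11 and −3.67).

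Of 24 imprinted genes, which are expressed from 1 parental copy, 7 were marked. Ascl2 was highest, then Grb10 (3.47 and 3.50), Dlk1 (3.01 and 2.95), Cdkn1c, Magel2 (2.01 and 2.26), Phlda2 (1.81 and 1.45) and Igf2 (1.08 and 1.07). Cdkn1c, Phlda2 and Ascl2 lie in the imprinted domain of chromosome 7, whose long noncoding RNA Kcnq1ot1 was not marked at its own promoter (−1.82 and −2.60). Zrsr1 was lowest (−3.17 and −4.47), and edgeR called 9 of 20 tested higher and 5 lower. Of all promoters 11.3% were marked, and of all those tested 14% were called higher and 61.0% lower. Reads were not assigned to parental copies. A set of ChIP-PCR target genes came from the study itself and is no independent choice. Of these 10 promoters 6 were marked, namely Hoxa10 (2.90 and 2.88), Hoxd9 (3.64 and 3.39), Pax7 (3.75 and 3.20), Bmp6, the neuronal genes Elavl3 (2.39 and 1.75) and Shc3 (3.24 and 3.00). The paper quantified the mark at these 6 and at Runx2 as genes that carry it in ES cells. It used Fgf4, Utf1 and Nphs1 for another purpose, as places where new marks arise under retinoic acid. Utf1, another ES cell gene, was lowest (−3.18 and −2.89), Nphs1 of the kidney had −0.35 and 0.03, and Fgf4 is given above. Runx2 of bone had −1.37 and −1.78 in a window with a CpG ratio of 0.16, which need not be its ChIP-PCR site.

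MicroRNA genes were counted at 1184 windows, centred on the annotated start of the hairpin, which for many microRNAs is not where transcription starts. Of these 49 (4.14%) were marked, beside 11.3% of all promoters, and 27 of the 49 lay in windows that overlapped no other. The families named here were chosen after their values were seen. Their mature sequences from RefSeq (GRCm38.p6) are shown 5′ to 3′ with the seed, bases 2 to 8, in capitals, to show which marked genes share a seed. Genes of 2 Hox cluster families come first, each family with 1 seed.
mmu-miR-10a-5p: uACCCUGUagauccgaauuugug
mmu-miR-10b-5p: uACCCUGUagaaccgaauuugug
mmu-miR-196a-5p: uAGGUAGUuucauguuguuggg
mmu-miR-196b-5p: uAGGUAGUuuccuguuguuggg
Then follow microRNAs known from neurons (miR-9 and miR-137) and the miR-193 pair.
mmu-miR-9-5p: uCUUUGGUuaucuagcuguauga
mmu-miR-137-3p: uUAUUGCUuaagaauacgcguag
mmu-miR-193a-3p: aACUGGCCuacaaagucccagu
mmu-miR-193b-3p: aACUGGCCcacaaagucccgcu
Mir10a in the HoxB cluster had 141, 283 and 11 reads (3.10 and 3.44), and Mir10b in HoxD had 201, 341 and 18 (2.92 and 3.02). Mir196b in HoxA had 457, 628 and 20 (3.95 and 3.75), Mir196a-2 in HoxC 371, 638 and 28 (3.17 and 3.30), and Mir196a-1 in HoxB 72, 221 and 19 (1.37 and 2.32). All 5 members of the 2 seed families were marked. The 3 genes of miR-9 were not alike. Mir9-3 had 348, 401 and 11 reads (4.40 and 3.94), Mir9-1 had 74, 108 and 6 (3.00 and 2.89), and Mir9-2 had 44, 171 and 17 (0.82 and 2.11), under 2-fold in replicate 1. Mir137 (2.54 and 2.67), Mir193a (3.16 and 3.20), Mir193b (1.93 and 2.15) and Mir375 of pancreatic islets (3.34 and 3.26) were marked. Of the miR-124 genes Mir124a-3 (3.54 and 3.44) and Mir124a-2 (2.83 and 3.09) were marked and Mir124a-1 was not (2.40 and 0.91).

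The microRNAs abundant in ES cells share another seed between clusters, as their sequences show.
mmu-miR-294-3p: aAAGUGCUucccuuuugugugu
mmu-miR-302b-3p: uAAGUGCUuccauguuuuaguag
Their promoters could not be measured here. Hairpins of the miR-290 to miR-295 cluster and of the miR-302 cluster lie so close that their windows overlap, and Mir294 and Mir302a had 0 reads in all 3 libraries. Mir302b passed the 2-fold rule on 1 and 3 reads against 0, which is at or under the floor of 3 reads, and edgeR did not test it.

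The sequence of the windows differed between marked and other promoters. The median CpG observed/expected ratio was 0.705 (quartiles 0.583 to 0.820) over 2767 placed marked promoters and 0.470 (0.205 to 0.758) over 21601 others, and the median GC content was 62.3% against 53.8%. The share marked was 0.888% of 5293 promoters with a ratio under 0.2 and 3.18% of 4748 between 0.2 and 0.4. It was 17.3% of 3355 between 0.4 and 0.6, 20.1% of 5980 between 0.6 and 0.8 and 15.9% of 4535 between 0.8 and 1. The share thus stepped up near a ratio of 0.4 and did not go on growing, and of all promoters with a ratio of at least 0.6, 18.1% were marked. Over the same classes the mean input reads per promoter stayed between 14.9 and 17.9. Across all placed promoters the Spearman's rho between enrichment and the ratio was 0.02.

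**Figure D4:**
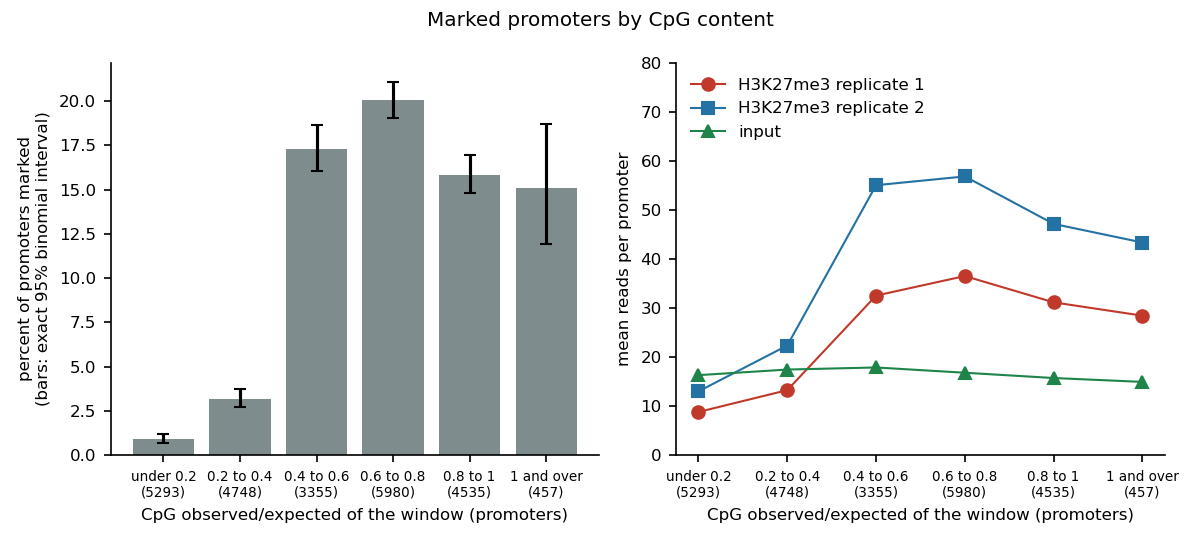
Left, percent of promoters marked by the CpG observed/expected ratio of the 1000 bp window, with exact 95% binomial intervals that cover counting error only. Right, mean reads per promoter in the same classes (numbers of promoters in brackets) for both H3K27me3 libraries and the input. The marked share steps from 3.18% to 17.3% near a ratio of 0.4, while the input stays nearly level.

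A small group of marked promoters was CpG-poor. Of 10041 promoters with a ratio under 0.4, 198 (1.97%) were marked, and 182 of these windows overlapped no other. Hoxa7 had 328, 450 and 20 reads (3.47 and 3.27), Hottip, a long noncoding RNA at the end of HoxA, 320, 566 and 21 (3.37 and 3.53), and Lor enrichments of 3.23 and 3.42. Fxyd7, a regulator of the sodium pump in brain (3.51 and 3.44), Hmx2, a homeobox gene of the inner ear (3.59 and 3.07), and Sphk1 (3.08 and 3.04) were others. Medians of the group were 1.67 and 1.88, against 2.25 and 2.29 for marked promoters with a ratio of at least 0.6. A peak in both libraries covered part of the window at 81.8% of the CpG-poor and 96.5% of the CpG-rich marked promoters, and an EZH2 domain did at 69.7% and 95.7%. Ratio, peak and domain were taken at windows placed on RefSeq, which may differ from those the authors counted. Robo2 had enrichments of 2.10 and 2.23, a ratio of 0.35, and neither a peak nor an EZH2 domain in both libraries. The part of misplaced windows in these shares was not tested.

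The share marked also varied with the kind of gene and the chromosome. It was 12.2% of 20557 protein-coding, while 190 of 2111 long noncoding RNA promoters were marked. On the X chromosome 7.42% of 1065 promoters were marked (95% interval 5.92 to 9.16), below every autosome. Fewer X promoters were CpG-rich (26.7%), and of those CpG-rich ones 16.2% were marked, within the 13.1% to 21.8% of the autosomes.

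The peaks called by the authors with MACS2 show the mark outside the windows as well. Replicate 1 had 12318 broad peaks over 37.8 Mb and replicate 2 had 19978 over 62.6 Mb. Median widths were 1671 and 1601 bp, and 551 and 1001 peaks reached 10 kb. These wide peaks held 25.7% and 27.9% of the summed peak length. MACS2's median fold enrichment was 3.30 and 3.04, a mean over each broad peak. For peaks a start site means the 5′-most RefSeq start of a counted gene, so other starts and genes not counted are left out. Such a start site lay inside 26.7% of the peaks of replicate 1 (95% interval 25.9 to 27.5) and 21.1% of replicate 2 (20.5 to 21.7). Within 5 kb of one lay 49.0% and 40.4%. Peaks over a start site were wider, with median widths of 4682 and 5518 bp against 1194 and 1227 bp for the rest. Their median folds were close (3.35 against 3.26 in replicate 1).

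Wide peaks of each replicate were nearly all touched by a peak of the other, and narrow ones less often. At least 1 bp of a peak of the other library overlapped 82.4% of the peaks of replicate 1 and 45.9% of those of replicate 2. Of the peaks under 500 bp it was 56.2% and 9.81%, and of those of at least 20 kb it was 100% in both. A wide peak meets the 1 bp rule more easily, and a stricter overlap of 50% was not split by width. Replicate 2 also had more reads, and the part of depth in its larger number of peaks was not tested.

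**Figure D5:**
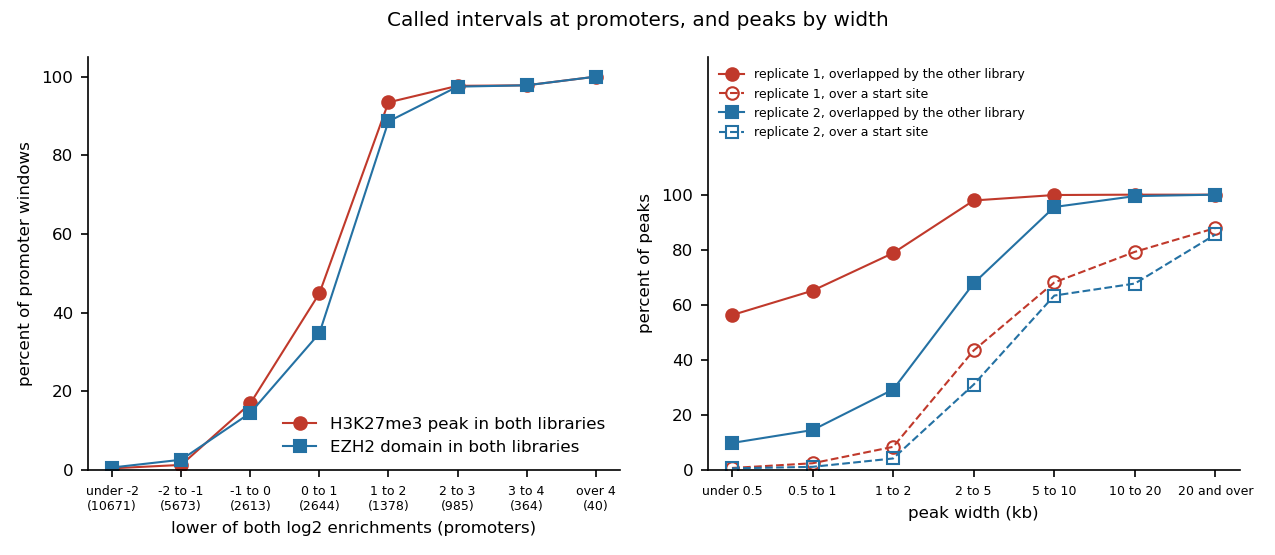
Left, percent of promoter windows touched by an H3K27me3 peak (circles) or an EZH2 domain (squares) in both control libraries, by the lower of both log2 enrichments, with numbers of promoters in brackets. Right, percent of peaks of each width class that the other library's peaks overlap (solid) and that hold a start site (dashed). Both shares in the left panel rise from under 3% below −1 to over 88% above 1. In the right panel peaks of at least 5 kb are nearly all touched by a peak of the other library.

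Joining overlapping peaks gave 8992 regions with a peak in both libraries, 51.4 Mb in all, of which 3871 held a start site and 2356 a marked promoter. The 4 widest were the Hox clusters. HoxC lay in 140 kb (chr15:102905054-103045276) with 12 of 12 start sites marked, HoxB in 137 kb with 13 of 13, HoxA in 132 kb with 17 of 18 and HoxD in 122 kb with 12 of 13. In each of the 4, the single peak of replicate 2 spanned at least 121 kb. Next came 86.6 kb around Cdkn1c (chr7:143386899-143473530) and 68.8 kb around 4933417O13Rik (chr7:143299077-143367879), a transcript whose own promoter was not marked (0.58 and 0.43). These 2 regions lie side by side. Mir9-3hg, the host gene of Mir9-3, followed with 67.4 kb, then the homeobox genes Nkx1-1 (67.0 kb) and Lmx1b (56.9 kb) and Trio (56.2 kb), a gene for a guanine nucleotide exchange factor. These widths are of the joined peaks of both libraries. Replicate 1 had 8 separate peaks in the Trio region (the widest of 9636 bp), 6 at Nkx1-1 (28739 bp) and 5 at 4933417O13Rik (33864 bp). It had 4 at Cdkn1c (46991 bp) and 2 in HoxD (72658 bp). Replicate 2 had 1 peak in each of these regions.

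Marked promoters also followed each other along chromosomes. There were 9 runs of at least 5 consecutive marked promoters, 84 promoters in all. The longest were in HoxA with Evx1 (18 promoters from Hoxa2 to Evx1os), HoxB (16) and HoxC (14). Outside the Hox clusters, 6 promoters in a row from Nkx2-4 to Pax1 on chromosome 2 and 6 from Wnt6 to Mir375 on chromosome 1 were marked, as were 6 gamma protocadherins on chromosome 18. The run on chromosome 1 spanned 129 kb, with Wnt10a, Cdk5r2, Fev and Cryba2 between. Runs of 5 lay at Dmrt1 to Smarca2 on chromosome 19 and at Trabd2b to Foxe3 on chromosome 4.

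Counts and called intervals were then compared at the same promoters, with the intervals taken at the windows placed on RefSeq start sites. A peak in both libraries touched the window of 95.6% of marked promoters (2646 of 2767, exact 95% interval 94.8 to 96.4) and of 8.09% of the others, but these peaks come from the same reads. EZH2, the enzyme, was measured in separate control libraries, from which the positions of called domains were used. An EZH2 domain in both of its libraries touched 93.1% of marked promoters (92.1 to 94.0) and 1513 of the 21601 others. The share grew with enrichment, from 0.628% of promoters under −2 to 34.8% between 0 and 1, 88.6% between 1 and 2 and 97.5% between 2 and 3. Of the marked promoters 82 (2.96%) had a peak but no EZH2 domain in both libraries, and 108 had neither.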

How the data were processed

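Reads of the control H3K27me3 and input libraries of E14 cells had been trimmed with Trimmomatic, aligned to mm10 with Bowtie2 and counted with HTSeq, per the submitters' processing notes. The authors deposited read counts per promoter, not normalized. Rows naming no gene, which held 94.4%, 94.0% and 98.1% of counted reads in replicate 1, replicate 2 and input, were left out of library sizes and tests. The authors also deposited MACS2 broad peaks, with a fold enrichment (a ratio to background) and −log10 p and −log10 q values, each a mean over the peak. The control given to MACS2 is not given in the sources used here. Deposited hiddenDomains positions were used for EZH2, and those for H3K27me3 were not used because they run past mm10 chromosome ends. EZH2 counts were not used.

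Enrichment was log2((CPM + 1)/(input CPM + 1)). Windows of 1000 bp were placed by gene symbol on the RefSeq annotation of GRCm38.p6, which placed all but 132 promoters. The windows counted by the authors may differ from these. Sequence, peak, EZH2 and window overlap values hold for the placed windows. The test was edgeR 4.0.16 (R 4.3.3), quasi-likelihood, TMM not applied, fitted on the 6 H3K27me3 and input libraries of both genotypes with 2 residual degrees of freedom. Alternatives included DESeq2 1.42.0. P-values were adjusted by the Benjamini-Hochberg method at 0.05. The edgeR script was tested on simulated data. With a single input library, input variation is known only from the other groups. Intervals are exact binomial at 95%.

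Among promoters whose average log2 CPM reached 3, those named were the 10 highest by the lower of both enrichments, the 5 lowest by the higher of both and the 5 that differed most between replicates. Also named were the ends of each list, members of the lineage, Polycomb, imprinted and ChIP-PCR lists, the 10 widest regions and 10 symbol stems. Other genes, the microRNAs and CpG-poor promoters were chosen after their values were seen. The gene lists and members were chosen with earlier results of these data known. A few named items are not reported here.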

Additional observations from a re-analysis of the deposited data

How the results depend on the processing

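No paired analysis was possible because the control input is 1 library with no replicate number, so the groups compared share fewer than 2 numbers. Of 56 recomputed counts and shares 31 kept their value within the stated limits, 25 moved and 0 reversed. The scale mattered most. With TMM edgeR called 5352 promoters higher and 2702 lower, with all counted reads 5203 and 2584, and DESeq2 called 4091 higher and 1 lower, with 15199 adjusted p left as NA (489 lower at an unadjusted p under 0.05). Marked promoters numbered 5232 with TMM factors, 5266 with DESeq2 size factors and 1394 at a 4-fold threshold. With the input of the Ezh2KO cells 2757 were marked, of which 2397 were among the 2776 of the main setting. With all counted reads 3815 were marked, of which 2605 were among them. Without either replicate edgeR called 2715 to 3185 higher and 11441 to 12522 lower, 2995 to 3457 promoters were marked, and the CpG difference was 0.241 to 0.242. The share of replicate 1 peaks overlapped was 59.2% at −log10 q of at least 3, 78.8% at 50% overlap and 83.3% with peaks joined, and that of replicate 2 was 32.6%, 43.9% and 50.7%. Joining gave 827 and 1526 regions of at least 10 kb. Marked promoters with a peak were 90.1% at 500 bp of overlap, 96.6% in either library, 97.8% at 4-fold and 52.7% at −log10 q of at least 3, and those with an EZH2 domain 91.0%, 95.8% and 97.6% for the first 3. For windows that overlap no other, an alternative chosen after seeing the data, the shares were 98.3% and 95.6%.

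Of 1441 recomputed log2 values of 167 named promoters, 1306 kept direction and call, 84 lost the call, 10 gained it and 41 reversed, mostly under another scale. The cause was not tested in each case. Not every promoter named above was among the 167. Values near 0 of others, such as Meox1 and Msgn1, may also change sign on another scale. Values under TMM, all counted reads and DESeq2 were 1.37, 1.44 and 1.35 for Aebp2, 1.10, 1.17 and 1.11 for Esrrb, 0.82, 0.89 and 0.81 for Meg3, 1.41, 1.48 and 1.40 for Nphs1, 1.48, 1.55 and 1.502 for Pax4, 1.04, 1.11 and 1.14 for Tdh, and 1.10, 1.17 and 1.11 for Wnt8b. Under TMM and all counted reads they were 0.86 and 0.94 for Defb25, 0.84 and 0.91 for Gata1, 0.18 and 0.27 for Kif16b, and 0.81 and 0.89 for Rsph3b. With all counted reads Fzd7 had 0.058 (0.12 in DESeq2), Olfr911-ps1 0.013 and Sox2 0.024. Leaving out each replicate in turn gave −0.99 to 0.28 for Aebp2, −1.19 to 0.78 for Fgf4, −0.50 to 1.93 for Klf2, −0.36 to 0.027 for Nphs1, −0.19 to 0.11 for Pax4 and −1.57 to 0.28 for Tdh. Cdkn2b had −0.78 without replicate 2 and Rsph3b 0.027 without replicate 1. With about 18 input reads a promoter in 1 library, small differences were not detectable.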

Other observations

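Promoters past 2-fold in a single library had fewer reads or a weaker signal than the marked ones. The 219 of replicate 1 alone had medians of 9, 10 and 2 reads in replicate 1, replicate 2 and input, and the 681 of replicate 2 alone had 34, 89 and 16, against 109, 182 and 18 for the marked promoters. A peak of replicate 2 touched 78.2% of the second group and 43.8% of the first. The largest differences between the replicates among promoters whose average log2 CPM reached 3 were at Kif16b (0, 18 and 12 reads), Olfml3 (0, 16 and 23), Fbxo6 (0, 16 and 28), Olfr911-ps1 (0, 15 and 12) and Rsph3b (0, 14 and 6), all with no read in replicate 1.

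Of the 8992 regions with a peak in both libraries 5121 held no 5′-most start site of a counted gene, and 1208 of these lay over 50 kb from one. Other start sites were not looked at. The widest region without such a start site was 52.8 kb wide and lay 106 kb from that of Pappa, a gene for a protease of IGF-binding proteins.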
